A study of Mus musculus with 18 samples.

Results

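The liver answers inflammation by changing what it secretes. Hepatocytes then transcribe a set of plasma protein genes, the positive acute phase genes, mainly under the cytokines interleukin-6 and interleukin-1, which act through STAT3, NF-kB and C/EBP transcription factors. The 10 genes described here were grouped with that set by name, which does not show that each is induced this way in mouse liver. Orm1, Orm2 and Orm3 encode orosomucoids (alpha-1-acid glycoproteins), lipocalins that bind drugs and other small molecules in plasma. Lcn2 encodes lipocalin-2, which binds bacterial iron carriers. Hp (haptoglobin) binds free haemoglobin and Hpx (hemopexin) binds haem. Itih3 and Itih4 encode heavy chains of the inter-alpha-trypsin inhibitor family, A2m encodes alpha-2-macroglobulin, a trap for proteases, and Cp encodes ceruloplasmin, a copper-carrying ferroxidase. They were chosen by gene symbol, and all 10 were found among the 37303 genes of the expression table.

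RNA-Seq was carried out on livers of 18 mice in 6 groups of 3: wildtype (WT), Gcn2-/- and Atf4-/- mice on a C57BL/6J background, each given PBS or asparaginase (ASNase, Elspar), an anti-leukemic enzyme that depletes asparagine and, to a lesser degree, glutamine. Gcn2 (Eif2ak4) encodes a kinase of eIF2 that senses amino acid shortage, and Atf4 encodes a transcription factor whose translation that kinase promotes. Both deletions were homozygous and whole-body, so cells other than hepatocytes lacked the gene as well. ASNase was injected into the peritoneum once daily for 8 days at 3 IU per gram body weight, and the controls received an equal volume of PBS. By the labels the livers were taken 7.5 h after the last injection, from mice aged at least 8 weeks. The upper age was 12 weeks in one label field and 16 weeks in another. Both sexes were used. Of the 3 mice, 1 was male in WT PBS, Gcn2-/- PBS and Gcn2-/- ASNase, and 2 were male in WT ASNase, Atf4-/- PBS and Atf4-/- ASNase, so that between a group of the first kind and one of the second the sex ratio cannot be told apart from treatment or strain.

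The table gives 1 FPKM value, a level of mapped fragments scaled to transcript length and library size, for each gene and group. Cuffdiff made it from all 3 libraries of the group and put an interval around it. Every value below is such a group value, with its interval in brackets where it is a member's, so neither a spread between mice nor a p-value can be given, and no difference has a replicate check. Differences between groups are those of log2(FPKM + 0.1), which shrinks the changes of genes near 0. A gene was eligible when both values had an estimate above 0 and either exceeded an FPKM of 3. It was past the fold limit when the log2 values differed by over 1.5, and called when its intervals were separate as well. In bulk liver, fewer cells of a type and less RNA per cell cannot be told apart.

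The labels and the tissue were examined first. Eif2ak4 measured 2.31 FPKM (1.05 to 3.57) in Gcn2-/- PBS and 3.04 (0.268 to 5.82) in WT PBS, and Atf4 measured 32.3 (19.1 to 45.5) in Atf4-/- PBS and 50.4 (29.7 to 71.1) in WT PBS. Both pairs of intervals overlapped, and a value over the whole gene does not show a deletion within it, so these values do not check the labels. Of 10 hepatocyte markers, 8 or 9 had an estimate, with summed FPKM between 9545 and 22844, which marks all groups as liver. Skeletal muscle markers summed to 849 and 1219 FPKM in WT PBS and WT ASNase against 5.78 to 154 in the knockout groups, lung epithelium markers to 132 in WT PBS against at most 2.05 elsewhere, and pancreatic acinar markers to 266 in Atf4-/- ASNase against at most 43.8 elsewhere. Adipose tissue markers summed to 14.8 and 14.6 in the WT groups and 2.72 to 5.28 in the knockouts. The part of these tissues in the differences between strains was not tested.

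Orm1, Orm3 and Orm2 lie in this order on the plus strand of chromosome 4 of GRCm38, at chr4:63344560-63348163, chr4:63356162-63359511 and chr4:63362449-63365878, with 7998 and 2937 bases between them, and each has 6 exons in GENCODE. Their coding sequences are close copies. Orm1 and Orm2 were identical at 89.9% of aligned coding bases, Orm2 and Orm3 at 88.3%, and Orm1 and Orm3 at 86.4%. The stretch below, coding bases 139 to 198 of Orm1 and the aligned bases of the others, shows where they can be told apart, with capitals at the 25 positions of 60 where the 3 genes are not all alike.
Orm1: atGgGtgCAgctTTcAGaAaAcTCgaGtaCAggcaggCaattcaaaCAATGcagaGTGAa
Orm2: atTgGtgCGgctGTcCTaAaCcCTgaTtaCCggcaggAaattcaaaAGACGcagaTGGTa
Orm3: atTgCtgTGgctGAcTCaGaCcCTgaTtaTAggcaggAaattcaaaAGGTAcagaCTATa
Over the 621 coding bases of Orm1 there were 107 such positions. Of the 676 windows of 100 bases (the read length) in the Orm1 transcript, 47 (6.95%) also occurred in Orm2, and none occurred in Orm3. Reads from those windows fit both genes equally well, so the split between Orm1 and Orm2 carries that uncertainty, while Orm3 has no such window in common with either.

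The bases upstream of Orm2, Orm3 and Lcn2 are shown because these genes had the largest differences between strains. They come from RefSeq (GRCm38.p6), in which 7 of the 10 genes matched an entry, and run from 250 bases before the start to the base before it. Capitals mark matches, searched on both strands, to the letters TTNNGCAA (a C/EBP site). Orm2 is at chr4:63362199-63362448 and Orm3 at chr4:63355908-63356157 on the plus strand, and Lcn2 at chr2:32387740-32387989 on the minus strand. GENCODE places the Lcn2 gene at chr2:32384633-32388252, so the Lcn2 window lies inside it and is upstream of the RefSeq start only.
Orm2: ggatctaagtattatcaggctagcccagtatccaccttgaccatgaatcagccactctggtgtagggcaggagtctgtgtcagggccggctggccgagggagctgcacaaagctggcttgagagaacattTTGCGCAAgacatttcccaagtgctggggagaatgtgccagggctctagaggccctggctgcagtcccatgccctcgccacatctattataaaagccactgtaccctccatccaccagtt
Orm3: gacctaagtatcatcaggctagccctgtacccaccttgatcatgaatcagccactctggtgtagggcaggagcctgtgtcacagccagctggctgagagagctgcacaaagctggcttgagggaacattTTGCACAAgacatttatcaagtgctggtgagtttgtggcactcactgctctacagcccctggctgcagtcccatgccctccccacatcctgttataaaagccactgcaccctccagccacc
Lcn2: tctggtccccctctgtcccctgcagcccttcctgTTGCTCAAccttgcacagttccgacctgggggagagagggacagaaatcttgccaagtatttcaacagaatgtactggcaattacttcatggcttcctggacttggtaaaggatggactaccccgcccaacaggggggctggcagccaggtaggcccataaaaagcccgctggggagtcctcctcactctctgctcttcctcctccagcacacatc
Orm2 and Orm3 were identical at 218 of 245 aligned bases (89.0%) here, and each held a C/EBP match at almost the same place, from -120 to -113 in Orm2 and from -121 to -114 in Orm3. Lcn2 held one from -216 to -209. Of the 7 genes, 5 had a C/EBP match (Orm2, Orm3, Lcn2, Hpx and Cp) and 1, Itih4, had a match to the STAT letters TTCNNNGAA. Of all 32817 RefSeq promoter windows, 9.57% held the C/EBP letters and 7.01% the STAT letters. The letters TGATGNAA of a C/EBP-ATF response element, found in 3.45% of windows, occurred in none of the 7. A match of letters is a description and not a bound site.

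In WT livers the members spanned a wide range of levels. Hpx stood highest in WT PBS at 2393 FPKM (511 to 4274), followed by Hp at 1214 (468 to 1960), Orm1 at 1050 (496 to 1605), Itih4 at 657 (129 to 1184), Cp at 490 (0 to 980) and Itih3 at 248 (88.5 to 408). The intervals of neighbours in this order overlapped. Below them, each step was wider than the intervals, with Orm2 at 31.6 (16.1 to 47.0), Lcn2 at 10.1 (4.78 to 15.5), Orm3 at 2.41 (0.170 to 4.65) and A2m at 0.0338 (0 to 0.0738). Wildtype liver thus held 6 abundant members and 4 that were low. All 10 together made up 0.843% of the summed FPKM of WT PBS.

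**Figure D1:**
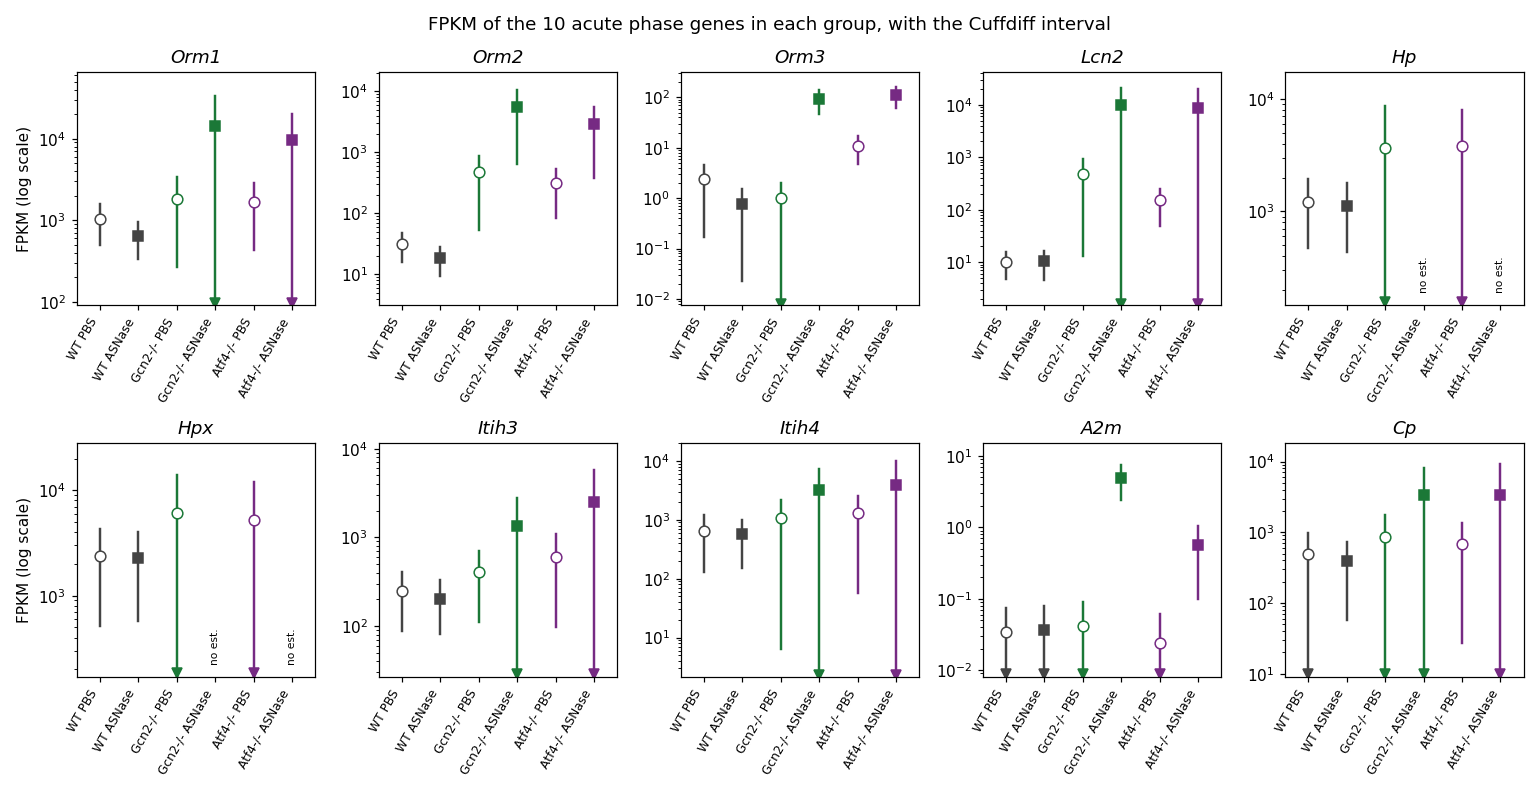
FPKM of each of the 10 genes (one panel each, log scale) in the 6 groups, with open circles for PBS, filled squares for ASNase and vertical lines for the Cuffdiff interval. An arrowhead marks a lower bound of 0 and "no est." a group without an estimate. The highest value lay in a knockout ASNase group for all 8 genes that were estimated in every group.

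In WT mice no eligible member was past the fold limit after ASNase. Of the 8 eligible members, 0 were past it and 0 were called, where 1.48% and 0.881% of the 9084 genes tested were. The 10 members made up 0.803% of the summed FPKM in WT ASNase, and the median log2 difference of the eligible members was -0.25 beside -0.01 over all eligible genes. Orm1 measured 648 FPKM (337 to 959) after ASNase and Orm2 18.5 (9.26 to 27.7), log2 differences of -0.70 and -0.77 with overlapping intervals. Lcn2 was nearly level at 10.5 (4.49 to 16.5), a log2 difference of 0.05. Hp at 1121 (436 to 1805), Hpx at 2275 (572 to 3978), Itih3 at 204 (80.3 to 327), Itih4 at 567 (150 to 984) and Cp at 390 (57.4 to 724) lay inside their PBS intervals. Orm3 at 0.783 (0.0223 to 1.54) and A2m at 0.0370 (0 to 0.0802) were below the FPKM minimum in both WT groups and not eligible, with log2 differences of -1.51 and 0.03 and overlapping intervals. Of 21 eligible genes on a list of other positive acute phase genes, 2 were called. Both encode metallothioneins, metal-binding proteins: Mt1 rose from 100 to 798 FPKM and Mt2 from 27.0 to 300.4 FPKM.

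Loss of Gcn2 alone, in mice given PBS, went with more Orm2. Of 8 eligible members 3 were higher past the fold limit (Orm2, Lcn2 and Hp), where 0.93% of the 8920 genes tested were, and Orm2 alone was called, where 0.392% of genes were called higher. Orm2 measured 470 FPKM (54.2 to 885), 14.9-fold its WT PBS level, with separate intervals. Lcn2 measured 472 (13.4 to 931), 46.5-fold higher, but its lower bound fell below the upper bound of 15.5 in WT PBS, so it was not called. Hp at 3656 (0 to 8732) was 3.01-fold and Hpx at 6024 (0 to 13996) 2.52-fold its WT level, both with a lower bound of 0. The remaining abundant members differed less, with Orm1 at 1840 (271 to 3410), Itih3 at 410 (112 to 709), Itih4 at 1071 (6.51 to 2135) and Cp at 852 (0 to 1732), log2 differences of 0.71 to 0.81 and overlapping intervals. Orm3 stayed at the bottom, 1.01 FPKM (0 to 2.03), as did A2m at 0.0417 (0 to 0.0908). All 8 eligible members had a value above WT, with a median log2 difference of 1.07 beside 0.06 over all eligible genes.

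Loss of Atf4 went with more Orm2, Lcn2 and Orm3 in mice given PBS. Of 9 eligible members 4 were higher past the fold limit (Orm2, Orm3, Lcn2 and Hp), where 0.763% of the 9039 genes tested were, and 3 were called, where 0.354% were called higher. Orm2 measured 314 FPKM (84.1 to 543), 9.94-fold the WT PBS level, and Lcn2 151 (48.8 to 253), 14.9-fold, both well clear of the WT intervals. Orm3 measured 10.9 (4.68 to 17.1), 4.53-fold the WT level, and was eligible only through this value. Its lower bound cleared the WT upper bound of 4.65 by a small margin, and under a median-ratio scaling of the groups the log2 difference was 2.11 and the call was lost. Hp at 3781 (0 to 8067), Hpx at 5224 (0 to 11873), Orm1 at 1659 (430 to 2888), Itih3 at 596 (98.1 to 1095), Itih4 at 1298 (56.3 to 2540) and Cp at 681 (27.2 to 1335) had values above WT with overlapping intervals. A2m was at 0.0243 (0 to 0.0609). The 9 eligible members were all above WT, with a median log2 difference of 1.26 beside 0.00 over all eligible genes.

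Set side by side under PBS, the knockouts differed in Orm3. It was 10.8-fold higher in Atf4-/- than in Gcn2-/- livers and was the 1 member called of 9 eligible, where 0.544% of the 9015 genes tested were called higher. Orm3 was eligible here only through its Atf4-/- value. Lcn2 was 3.13-fold higher in Gcn2-/- PBS, past the fold limit, as 0.943% of genes were in that direction, but with overlapping intervals. The other 7 eligible members differed by less than the limit. The comparisons of each knockout with WT share the WT PBS libraries.

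ASNase in Gcn2-/- mice went with much higher levels of every member that was estimated. Of 10 members 8 were eligible and all 8 were higher past the fold limit, where 3.02% of the 9218 genes tested were. Of these, 2 were called, Orm3 and A2m, where 1.56% were called higher. Both had a PBS value under the FPKM minimum of 3 and were eligible only through their ASNase value. Against the A2m PBS value of 0.0417, any ASNase value over that minimum lay past the fold limit. Orm3 rose from 1.01 to 92.1 FPKM (46.7 to 137), 91.4-fold. A2m rose from 0.0417 to 4.96 FPKM (2.40 to 7.51), a log2 difference of 5.16, from a level near 0 to a low one. Orm1 reached 14515 FPKM (0 to 33044) and Lcn2 9990 (0 to 21186), 7.89-fold and 21.2-fold their PBS values, and these were places 2 and 7 among all genes by FPKM. Their lower bounds were 0, so their intervals included those of PBS. Orm2 reached 5535 (633 to 10437), 11.8-fold its PBS value, with a lower bound inside the PBS interval. Cp reached 3336 (0 to 8113), Itih4 3201 (0 to 7311) and Itih3 1327 (0 to 2776), which were 3.92-, 2.99- and 3.23-fold the PBS values, all with a lower bound of 0.

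ASNase in Atf4-/- mice also went with higher levels of the estimated members. All 7 eligible members were higher past the fold limit, where 5.23% of the 9485 genes tested were, and 1, Orm3, was called, where 2.74% were called higher. Orm3 rose from 10.9 to 111 FPKM (60.6 to 161), 10.2-fold. Lcn2 measured 8691 (0 to 19987), 57.6-fold its PBS value and at place 8 among all genes, and Orm1 9641 (0 to 20086), 5.81-fold and at place 6. Orm2 measured 2939 (385 to 5493), 9.37-fold, with a lower bound inside the PBS interval of 84.1 to 543. Itih4 at 3894 (0 to 10027), Cp at 3400 (0 to 9109) and Itih3 at 2473 (0 to 5779) were 3.00-, 4.99- and 4.15-fold the PBS values with a lower bound of 0. A2m measured 0.567 (0.0997 to 1.03), a log2 difference of 2.42 with separate intervals, but at this level it was not eligible.

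**Figure D2:**
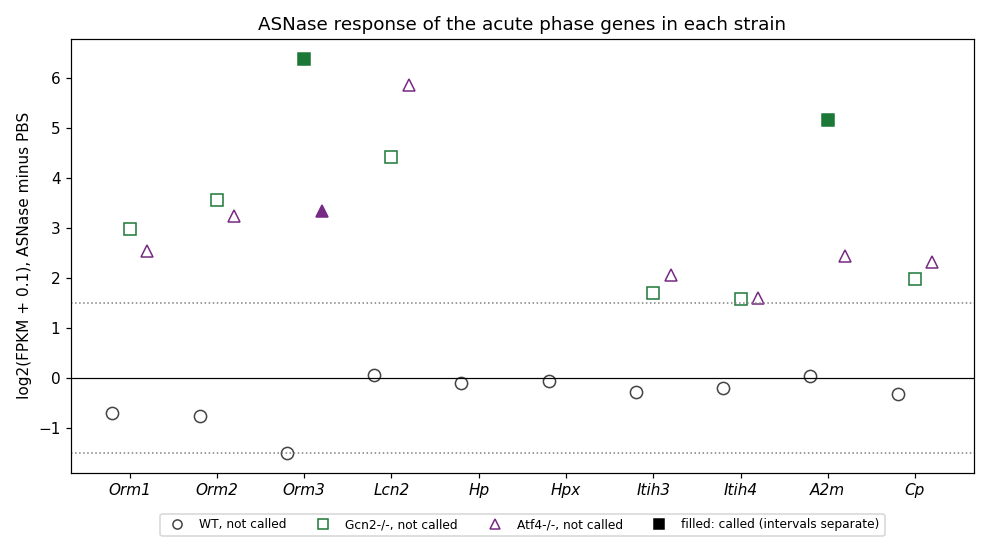
Difference of log2(FPKM + 0.1) between ASNase and PBS for each gene (vertical axis) in WT (circles), Gcn2-/- (squares) and Atf4-/- (triangles) livers. Filled symbols were called, open ones were not, the dotted lines mark 1.5 in either direction, and Hp and Hpx have no knockout symbol because they had no estimate. WT values lay between -1.51 and 0.05 and knockout values between 1.58 and 6.38.

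Hp and Hpx could not be followed into this condition. In Gcn2-/- ASNase and in Atf4-/- ASNase the table lists both at 0 with the status HIDATA, which Cuffdiff gives to loci with too many fragments to be estimated, so these zeros are not levels. Both genes had been the highest members under PBS in each knockout. Between 17 and 37 genes per group carried this status.

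Against WT mice given the same ASNase, the eligible members differed more than in their own strain's ASNase response. In Gcn2-/- ASNase all 8 eligible members were higher past the fold limit, where 3.3% of the 9423 genes tested were, and 3 were called (Orm2, Orm3 and A2m), where 1.83% were called higher. In Atf4-/- ASNase all 7 eligible members were, where 4.88% of 9577 were, and 2 were called (Orm2 and Orm3), where 2.59% were called higher. Orm3 and, in Gcn2-/-, A2m were eligible only through the knockout value. At their WT ASNase levels any eligible knockout value lay past the fold limit. Orm2 was 299.6-fold higher in Gcn2-/- and 159-fold higher in Atf4-/- than in WT ASNase livers. Orm3 was 118-fold and 142-fold higher. A2m differed by 5.21 on the log2 scale in Gcn2-/-, against a WT level near 0. Lcn2 was 950.3-fold and 827-fold higher, with lower bounds of 0 in both knockouts, and was not called. Orm1 was 22.4- and 14.9-fold, Cp 8.54- and 8.71-fold, Itih3 6.51- and 12.1-fold and Itih4 5.65- and 6.87-fold higher, again with lower bounds of 0. These comparisons and the ASNase responses share libraries and are not independent of each other.

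After ASNase the knockouts were set against each other, and A2m separated them. It was the 1 member of 8 eligible past the fold limit and the 1 called, where 3.92% of the 9355 genes tested were lower past the limit in Atf4-/- and 2.29% were called lower. A2m was 8.75-fold higher in Gcn2-/- ASNase, at 4.96 FPKM (2.40 to 7.51) against 0.567 (0.0997 to 1.03). It was eligible only through the Gcn2-/- value, and against 0.567 any eligible value lay past the fold limit. Levels that low rest on few fragments, and with an FPKM minimum of 10 the gene is no longer eligible. The other 7 members differed at most 1.88-fold, with overlapping intervals as wide as described above, which does not show that they are alike.

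The difference between strains in the ASNase response was examined directly, as a difference of log2 changes set against the combined interval error of the 4 values. Between Gcn2-/- and WT it passed both the fold limit and this error for Orm2 (4.33, error 3.45), Orm3 (7.89, error 3.60) and A2m (5.12, error 1.24), where 4.43% of the 9523 genes tested passed. Between Atf4-/- and WT it passed for Orm2 (4.00, error 3.24) and Orm3 (4.84, error 3.51), where 6.53% of 9698 passed. Between Atf4-/- and Gcn2-/- it passed for Orm3 (-3.04, error 1.89) and A2m (-2.73, error 1.38), where 3.57% of 9684 passed. Of these, A2m and, between Gcn2-/- and WT, Orm3 were eligible only through the Gcn2-/- ASNase value. The PBS value of Orm3 was higher in Atf4-/- than in Gcn2-/- livers, as given above, and its ASNase values, 111 and 92.1 FPKM, differed 1.20-fold with overlapping intervals. For Orm1, Lcn2, Itih3, Itih4 and Cp the combined error was between 13.8 and 20.0 on the log2 scale, so no difference of theirs could pass.

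Relative to the value, intervals were wide both for the abundant members after ASNase in the knockouts and for members near 0. For A2m in the 4 groups near 0 the upper bound lay 117 to 150.2% above the value. In the knockouts after ASNase the distance from the value to its upper bound was 86.9 to 168% of the value for Orm1, Orm2, Lcn2, Itih3, Itih4 and Cp, while it was 49.3% and 45.3% for Orm3. The median over genes with FPKM over 3 was 51.3 to 54.2% in the 6 groups, and over the 80 to 103 genes per group with the highest levels (over 1000 FPKM) it was 72.8 to 84.9%, with a lower bound of 0 in 24.1 to 35.8% of them.

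**Figure D3:**
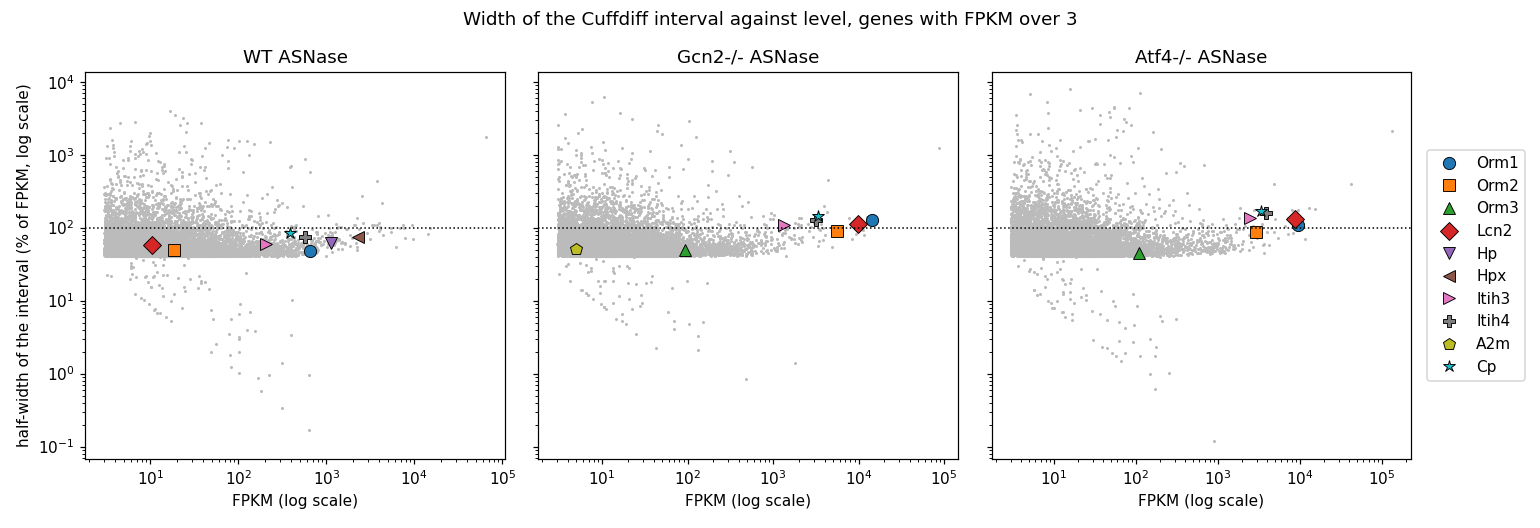
Distance from FPKM to its upper bound in percent of FPKM (log scale) against FPKM (log scale) for genes with FPKM over 3 (grey) and the members among them (coloured symbols) in the 3 ASNase groups, with a dotted line at 100%, above which the lower bound reaches 0. In both knockouts Orm1, Lcn2, Itih3, Itih4 and Cp lay above the line, and Orm2, Orm3 and (in Gcn2-/-) A2m below it.

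By their group values the orosomucoids differed between groups in make-up as well as in sum. Their summed FPKM under PBS was 1084 for WT, 2311 for Gcn2-/- and 1983 for Atf4-/- livers, and after ASNase it was 667, 20142 and 12690. Orm1 was the main transcript throughout, yet Orm2 made up 2.91% and 2.77% of the sum in the WT groups, 20.3% and 15.8% in Gcn2-/- and Atf4-/- PBS, and 27.5% and 23.2% after ASNase. Orm3 remained under 1% in all groups, between 0.0436% in Gcn2-/- PBS and 0.873% in Atf4-/- ASNase. Each share is a ratio of point values, and a change in make-up was not tested. The interval of Orm1 ran from 0 to 33044 FPKM in Gcn2-/- ASNase and from 0 to 20086 in Atf4-/- ASNase. The split between Orm1 and Orm2 also carries the uncertainty of the windows they have in common. Orm2 and Orm3, with the similar upstream bases printed above, differed in point values under PBS. Orm2 was 14.9-fold above WT in Gcn2-/- livers, with separate intervals. Orm3 measured 1.01 FPKM (0 to 2.03) there against 2.41 (0.170 to 4.65) in WT. Both Orm3 values were below the FPKM minimum of 3 and their intervals overlapped, so a different pattern of the 2 genes is not shown.

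**Figure D4:**
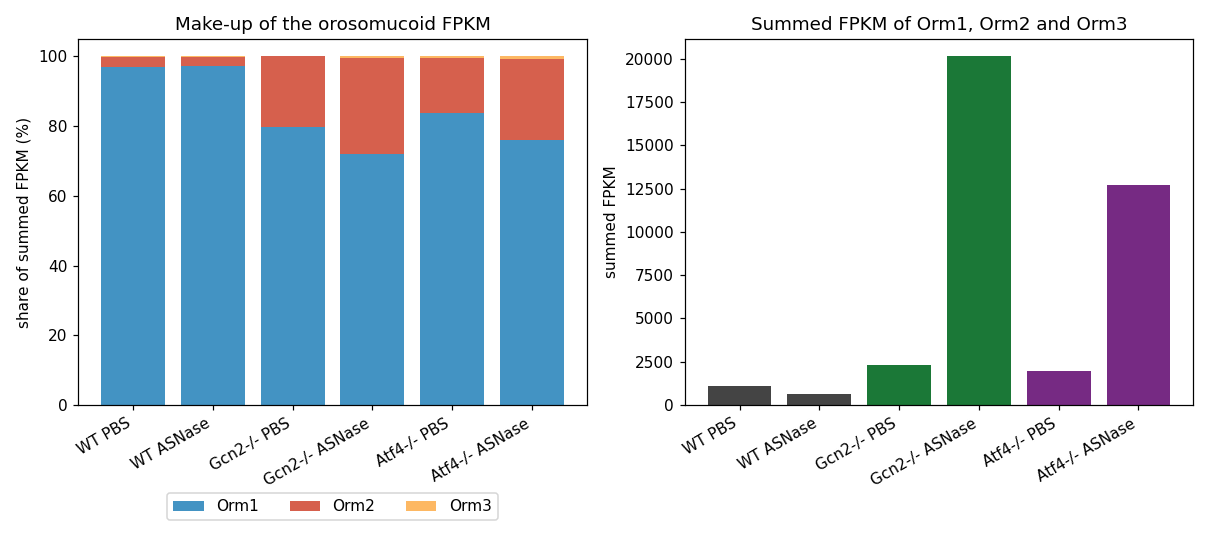
Share of Orm1, Orm2 and Orm3 in their summed FPKM in percent (left, stacked bars) and the sum itself in FPKM (right, bars) in each group, without error bars because the table gives none for sums. The Orm2 share was under 3% in both WT groups and between 15.8 and 27.5% in the knockouts.

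By order of level over the groups, Orm1, Orm2 and Lcn2 were highest in Gcn2-/- ASNase, then Atf4-/- ASNase, Gcn2-/- PBS and Atf4-/- PBS, with both WT groups last. Itih3, Itih4, Cp and Orm3 were highest in Atf4-/- ASNase, followed by Gcn2-/- ASNase. Few of these steps were wider than the intervals. For Orm2 and Lcn2 the step from Atf4-/- PBS down to WT was. For Orm3 the steps from Gcn2-/- ASNase to Atf4-/- PBS and from there to WT PBS were, and for A2m the steps from Gcn2-/- ASNase to Atf4-/- ASNase and from there to Gcn2-/- PBS. For Orm1, Hp, Hpx, Itih3, Itih4 and Cp no neighbouring groups were separate. Without Hp and Hpx the members took 0.344 and 0.282% of the summed FPKM in WT PBS and WT ASNase. The shares were 0.624 and 0.707% in Gcn2-/- and Atf4-/- livers under PBS, and 5.43 and 3.85% after ASNase. Loci with the status HIDATA, 17 to 37 per group, add nothing to these sums, so the sums do not cover the same genes in each group. Orm1 and Lcn2, the highest estimated members in both knockouts after ASNase, had lower bounds of 0 there.

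Across the 6 groups, the genes most like each member were sought among 2449 genes estimated in all groups with FPKM over 3 in at least 1 and a log2 range over 1.5. The measure was Pearson's r of log2 values, given as a description with no test, over points that are group values of the same libraries as the differences above. Orm2 and Lcn2 were each other's nearest gene (r = 0.990, n = 6 groups). Itih3 was nearest to Socs3, a feedback inhibitor of cytokine signalling (r = 0.993), and had Itih4, its neighbour on chromosome 14 at a gap of 6218 bases, among its nearest 3 (r = 0.991). Orm1 was nearest to Ifitm2 (r = 0.998) and had the macrophage receptor gene Marco among its nearest 3 (r = 0.997). The nearest gene was Acnat2 for Orm3 (r = 0.992), Cd302 for Itih4 (r = 0.998), O3far1 for A2m (r = 0.997) and Sybu for Cp (r = 0.998). Between members, r ranged from 0.720 for A2m and Itih3 to 0.992 for Orm1 and Cp.

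A list of other positive acute phase genes was examined in the same way. Of 23 listed, 18 were eligible with ASNase in each knockout. In Gcn2-/- livers all 18 had a higher value after ASNase, 12 were past the fold limit and 7 were called, where 1.56% of all genes tested were called higher, among them Cd14, the co-receptor for bacterial endotoxin (2.07 to 57.1 FPKM), Steap4, a metalloreductase (41.1 to 624 FPKM) and Mt2 (306 to 3444 FPKM). In Atf4-/- livers 16 had a higher value and 2 a lower one (Crp at 236 against 342 FPKM and Saa4 at 243 against 288 FPKM), 13 were past the limit and 5 were called, where 2.74% were called higher, among them Il1rn, the interleukin-1 receptor antagonist (4.10 to 136 FPKM), Saa3, a serum amyloid A gene (23.2 to 672 FPKM) and Cd14 (3.05 to 82.6 FPKM). In Gcn2-/- livers Cd14 was eligible only through its ASNase value. No listed gene was called lower in either knockout. The median log2 difference was 2.49 and 2.06, beside 0.02 and 0.08 over all eligible genes. Under PBS, 6 of 21 were higher past the fold limit than in WT in each knockout, where 0.93% (Gcn2-/-) and 0.763% (Atf4-/-) of genes were. In Gcn2-/- livers 3 were called higher (Saa3, Mt2 and Mt1), where 0.392% were, and 3 in Atf4-/- livers (Mt2, Mt1 and Lrg1), where 0.354% were. Saa1 measured 3784 and 3622 FPKM in Gcn2-/- and Atf4-/- PBS against 70.9 in WT PBS, and Saa2 4273 and 3210 against 56.9. Their lower bounds were 0 in both knockouts, so neither was called. Saa3 measured 876 FPKM in Gcn2-/- PBS against 17.7 in WT PBS and 23.2 in Atf4-/- PBS, and was called lower in Atf4-/- than in Gcn2-/- PBS.

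Negative acute phase genes, whose plasma proteins fall in inflammation, mostly had lower values after ASNase in the knockouts. Of 9 listed, 7 were eligible in each knockout and 2 were called lower after ASNase in each, where 2.13% and 4.63% of all genes tested were called lower in Gcn2-/- and Atf4-/- livers. These were Serpina6 (corticosteroid-binding globulin) and Igfals, a carrier subunit for insulin-like growth factors. Serpina6 fell from 436 to 9.37 FPKM in Gcn2-/- and from 229 to 25.0 FPKM in Atf4-/- livers. Igfals fell from 64.3 to 17.7 FPKM in Gcn2-/- and from 58.8 to 2.52 FPKM in Atf4-/- livers. In WT livers none of 7 was called, where 0.881% of all genes tested were called in either direction.

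Genes of the cytokine signals that drive the acute phase were called as well. Of 17 listed, 5 were called higher after ASNase in Gcn2-/- and 5 in Atf4-/- livers, Il1r1, Socs3, Cebpd, Nfkbiz and Osmr in each. Of all genes tested, 1.56% and 2.74% were called higher. In WT 0 of 15 were called, where 0.881% of all genes tested were called in either direction. Il1r1, the interleukin-1 receptor, rose from 6.88 to 78.0 FPKM in Gcn2-/- livers, where Cebpd, a C/EBP factor, rose from 3.35 to 25.6 FPKM. Socs3 rose from 4.93 to 26.8 FPKM in Gcn2-/- and from 7.23 to 56.6 FPKM in Atf4-/- livers. Osmr, the oncostatin M receptor, rose from 1.04 to 9.22 FPKM in Atf4-/- livers, where it was eligible only through its ASNase value. Under PBS 1 of 16 was called in Atf4-/- against WT, Il1r1 at 17.6 against 6.09 FPKM, and 0 of 15 in Gcn2-/-. Of all genes tested, 0.354% and 0.392% were called higher in these comparisons.

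Of 11 partners and receptors of the members, 8 and 7 were eligible in the ASNase responses of Gcn2-/- and Atf4-/- livers, and 1 was called higher in each, beside the same 1.56% and 2.74% of all genes. This was Hmox1, the enzyme that breaks down haem, which rose from 13.0 to 40.3 FPKM in Gcn2-/- and from 14.7 to 55.3 FPKM in Atf4-/- livers, and Slc40a1, the iron exporter ferroportin, was called lower in Atf4-/- livers, where 4.63% of genes were, from 70.7 to 24.2 FPKM. Cd163, the macrophage receptor for haptoglobin-haemoglobin, was higher in Atf4-/- than in Gcn2-/- PBS, at 6.88 against 1.59 FPKM. It was the 1 called of 8 eligible, where 0.544% of all genes were called higher, and was eligible only through its Atf4-/- value. Of the 3 relatives of A2m listed (Pzp, Mug1 and Mug2), none was called higher with ASNase in either knockout. With 1.56% and 2.74% of all genes called higher, a count of 0 in 3 genes does not set them apart. In Atf4-/- livers 1 of the 3 was called lower with ASNase, where 4.63% of all genes were. Mug2, a murinoglobulin, fell from 183 to 16.7 FPKM there.

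Lcn2 is also stored in neutrophils, and Marco and Cd163 belong to macrophages, so markers of these cells were summed. The 10 neutrophil markers came to 8.52 (WT), 12.1 (Gcn2-/-) and 16.8 FPKM (Atf4-/-) under PBS and to 5.91, 1.71 and 6.74 FPKM after ASNase, and Ly6g was listed at 0 in all groups but Gcn2-/- PBS. At most 3 of the 10 were over 1 FPKM in any group, and the part of neutrophils in the Lcn2 values was not tested. Of 6 Kupffer cell markers 5 were matched and summed to 112 to 240 FPKM without an order that followed the members. In Gcn2-/- livers 3 of the 5 had a lower value after ASNase, Clec4f past the fold limit but not called (67.3 to 15.9 FPKM), and Marco was called higher (8.32 to 118 FPKM). In Atf4-/- livers 4 of the 5 had a lower value, Clec4f past the limit (102 to 30.1 FPKM) and Cd5l called lower (91.6 to 31.3 FPKM), and Marco was called higher (9.22 to 67.3 FPKM). The part of these cells in the members' values was not tested.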

How the data were processed

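RNA from whole liver was made into poly-A selected libraries and sequenced as single-end reads of 100 bases. The authors mapped reads to mm10 by TopHat and Bowtie, built transcripts by Cufflinks and Cuffmerge, and took levels from Cuffdiff. The deposited FPKM values are 1 per gene and group, estimated by the authors from 3 libraries together, with interval bounds in the same unit and a status. The level of the interval and strand use in counting are not given in the sources used here. Cp overlaps Hps3 on the other strand, so reads of these genes may not be told apart.

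Differences of log2(FPKM + 0.1) were computed over all 37303 genes with Python 3.11.15, numpy 2.4.6 and pandas 2.3.3, leaving out 160 values without an estimate. The rules were tried on simulated data with 200 genes changed 16-fold at unchanged relative interval widths. That setting does not cover intervals that widen until the lower bound is 0, as in the abundant members. FPKM carry no counts, so precision was taken from the intervals, and the read totals per library that the study lists were not used here. The members, lists and rules were chosen with earlier results of these data known. All members are given in every group, each list is named by up to 3 called genes with the largest differences per comparison, and nearest genes were the 3 with the highest r. Nfkbiz, Marco, Cd5l, Clec4f, Crp and, in the Atf4-/- response, Saa4 were named after their values were seen, as were Saa1 and Saa2 under PBS. Alternatives were pseudocounts of 1 and 0.01, FPKM minima of none and 10, a fold limit of 1, combined intervals, genes listed at 0 included, and median-ratio scaling. 0 value columns were left out of the group map.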

Additional observations from a re-analysis of the deposited data

Results flagged for a closer look

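Responses to ASNase that differed between strains beyond the fold limit and the combined interval error are collected here. They rest on group values, were not tested over mice, and share the PBS and ASNase libraries of each strain. The log2 response of Gcn2-/- minus that of WT livers was 4.33 for Orm2, 7.89 for Orm3 and 5.12 for A2m. The response of Atf4-/- minus that of WT livers was 4.00 for Orm2 and 4.84 for Orm3. The response of Atf4-/- minus that of Gcn2-/- livers was -3.04 for Orm3 and -2.73 for A2m. The WT values of Orm3 and A2m were under the FPKM minimum of 3 in both WT groups.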

How the results depend on the processing

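Every group has 1 value per gene, so leaving out each replicate could not be run. No paired analysis was possible because the table holds no values of single libraries, and the replicate block was not run. Requiring an FPKM over 10 left 1 member called in the Gcn2-/- ASNase response (Orm3, without A2m), 0 between the knockouts after ASNase, and 1 different response between the knockouts (Orm3). With no FPKM filter the Atf4-/- ASNase response had 2 called members (Orm3 and A2m). With a combined interval in place of separate ones, Gcn2-/- PBS against WT PBS had 2 (Orm2 and Lcn2). The Atf4-/- ASNase response then had 2 (Orm2 and Orm3) and the Gcn2-/- ASNase response 3 (Orm2, Orm3 and A2m). A linear difference interval, chosen after seeing the data, gave the same 2, 2 and 3. Orm3 in Atf4-/- PBS against WT PBS lost its call under median-ratio scaling, at a log2 difference of 2.11. No other count of called members moved beyond 1.5 times, and no difference past the fold limit reversed. Within that limit, an FPKM over 10 also removed A2m from Gcn2-/- against WT ASNase and from the different responses of Gcn2-/- and WT. That left 2 members (Orm2 and Orm3) in each. With no FPKM filter A2m was added to Atf4-/- against WT ASNase and to the different responses of Atf4-/- and WT. Cp between the knockouts after ASNase, which was not called, had a log2 difference of 0.0275 and of -0.0048 under median-ratio scaling. Over all genes, the count called rose from 93, 101 and 80 (Gcn2-/- and Atf4-/- PBS against WT PBS, and the WT response) to 144, 153 and 124 with no FPKM filter and to 192, 182 and 179 with genes listed at 0 included, which took Atf4-/- against Gcn2-/- PBS from 88 to 182. With an FPKM over 10 the counts were 56 for the last and 41 for the WT response. The wide intervals of abundant genes are the main limit. A value whose lower bound is 0 cannot be separate from any smaller value, so a member that was not called is not shown to be level.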
